A study of Mus musculus with 8 samples.

Results

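Transcripts of the hypoxia response that do not encode glycolytic enzymes were followed read by read in undifferentiated P19 cells exposed to the mTOR agonist MHY1485 (MHY). The 10 members (*Egln1*, *Ddit4*, *Slc2a1*, *Slc16a3*, *Pdk1*, *Bnip3*, *Fam162a*, *Higd1a*, *P4ha1* and *Ankrd37*) were taken by gene symbol from the nuclear mRNAs of the series, out of 13120 genes with a read, and each had to hold at least 30 reads in total. They were chosen in part on their read numbers, which were lower under MHY after 48 h, so every value that sets MHY beside DMSO at 48 h is given as a description without a test, and only the comparison at 24 h was tested. All 10 passed the minimum of 30 reads. Closest to it were *Ankrd37* with 36 reads, *Pdk1* with 76 and *P4ha1* with 78, whereas *Vegfa* and *Pim1*, hypoxia targets outside the list, held 18 reads each and fell short.

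P19 is a mouse embryonal carcinoma cell line, here wild type and grown in high-glucose medium with serum. The 4 groups combine an agent, MHY at 10 µM or its solvent DMSO, with an exposure of 24 h or 48 h (medium was renewed daily), and each holds 2 biological replicates. Poly(A) RNA was read by nanopore direct RNA sequencing, in which 1 read is 1 native mRNA molecule and carries an estimate of its poly(A) tail in nucleotides (nt). Libraries are named by the numbers of the deposited table, 21 and 23 at 24 h and 24 and 25 at 48 h, for DMSO and MHY alike, and these numbers are not hours.

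Cells sense oxygen through prolyl hydroxylases that mark the alpha subunits of hypoxia-inducible factors (HIFs) for VHL-dependent degradation. When oxygen is scarce HIF accumulates and binds response elements whose core reads ACGTG or GCGTG, near genes that raise glucose uptake and lactate export, divert pyruvate from the mitochondria, remove mitochondria and feed back on HIF and on growth. The response also meets mTOR. mTORC1 activity favours the synthesis of HIF-1α, and the HIF target *Ddit4* encodes REDD1, which restrains mTORC1.

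The promoters show what the members share in sequence beyond their names. Each member had a RefSeq promoter (assembly GRCm38.p6, 250 bases before to 50 bases after the annotated start), and *Pdk1* had a further one. ACGTG occurred on either strand in the promoters of 9 of the 10 members, all but *Pdk1*, compared with 19.6% of the 32851 promoters of the table and 28.5% of the 5925 promoters of genes with at least 30 reads. GCGTG was found in 9 of 10, all but *Slc16a3*, against 32.4% and 55.2% for the same backgrounds. Every member had at least 1 of these motifs, as did 43.8% of all promoters and 67.1% of those of genes with at least 30 reads. Counted by promoter, as the backgrounds are, ACGTG was in 9 of 11, GCGTG in 9 of 11 and either in 10 of 11. The further *Pdk1* promoter held neither. A match is a description of letters, and no binding was measured here. The stretches of 80 bases that hold the most matches upstream of the start are printed for the 6 members whose reads did not overlap between MHY and DMSO at 24 h. They read 5′ to 3′ on the strand of the gene, with both motifs and their reverse complements in capitals.
Egln1 (chr8:124949309-124949388, minus strand): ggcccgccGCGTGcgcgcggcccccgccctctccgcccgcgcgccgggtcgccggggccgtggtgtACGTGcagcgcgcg
Ddit4 (chr10:59951879-59951958, minus strand): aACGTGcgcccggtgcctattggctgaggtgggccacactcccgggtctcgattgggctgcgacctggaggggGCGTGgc
Slc2a1 (chr4:119108650-119108729, plus strand): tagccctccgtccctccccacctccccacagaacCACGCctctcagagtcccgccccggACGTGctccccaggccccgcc
Slc16a3 (chr11:120948983-120949062, plus strand): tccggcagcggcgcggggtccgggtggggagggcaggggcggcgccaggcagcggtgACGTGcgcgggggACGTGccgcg
Bnip3 (chr7:138909571-138909650, minus strand): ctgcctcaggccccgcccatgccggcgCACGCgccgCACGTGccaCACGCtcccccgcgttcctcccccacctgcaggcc
Fam162a (chr16:36071569-36071648, minus strand): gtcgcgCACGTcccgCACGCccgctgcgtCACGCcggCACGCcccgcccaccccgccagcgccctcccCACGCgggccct
*Fam162a* was the densest, with 1 ACGTG and 5 GCGTG over its promoter. *Bnip3* had the palindrome CACGTG, which holds ACGTG on both strands, together with 3 GCGTG. In *Slc16a3* the 2 ACGTG lay 27 and 14 bases before the annotated start, and no GCGTG was found in this window.

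Libraries held 178369 to 316546 nuclear mRNA reads. Levels are given in CPM, the reads of a gene at a common library size of 1000000 reads, after scaling libraries by the median ratio of their genes. The members added 314 to 766 reads per library. Of 14 embryonal carcinoma markers, 13 were detected and the missing one was *Zfp42*. Their summed level was 4156 to 4523 CPM in DMSO and 4014 to 4164 in MHY at 24 h, and 4091 to 4418 in DMSO and 3493 to 4182 in MHY at 48 h. Neuronal markers were low, with 8 of 11 detected (none of *Dcx*, *Rbfox3* or *Neurog1*). They summed to 322 to 362 CPM in DMSO and 284 to 433 in MHY at 24 h, and to 310 to 340 in DMSO and 221 to 234 in MHY at 48 h, mostly through *Stmn2*. Endoderm and mesoderm markers (9 of 12 detected, without *Sox17*, *Afp* and *Tbx6*) summed to 107 to 166 and 78.0 to 102 in DMSO and MHY at 24 h, and to 170.1 to 395 and 106 to 334 at 48 h. The higher 48 h sum was that of the library numbered 25 in both DMSO and MHY. The part of such cells in the values below was not tested.

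**Figure D1:**
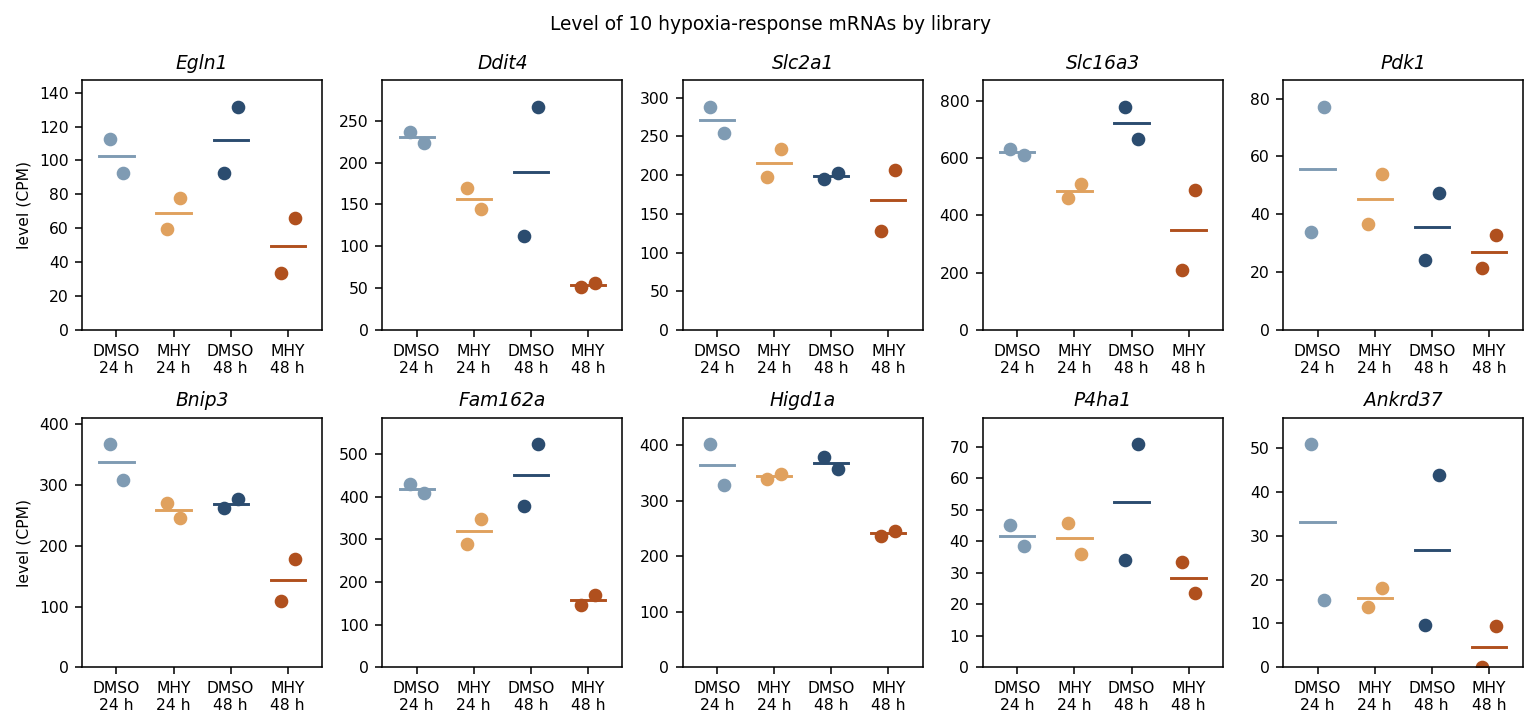
Level in CPM (y axis, starting at 0 in each panel) of the 10 members in each library of the 4 groups (x axis); points are libraries, with the lower library number on the left, and bars are group means of 2. At 24 h both MHY points lie below both DMSO points in 6 panels, and at 48 h in 8.

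After 24 h of MHY the members stood lower than in DMSO without passing the test. In the limma fit of reads over 5842 genes, 9 of 10 had a log2 difference below 0, with a median of -0.36 where the median of all genes was 0.01. No member was called (adjusted p 0.93 to 1.00, limma voom), and *Ddit4*, *Slc16a3* and *Fam162a*, 3 members that were lower in MHY, reached an unadjusted p under 0.05. Of all genes, 0% were called lower and 0.0342% (2 genes) higher, and 2.19% were lower with an unadjusted p under 0.05. With limma trend on log2 values, and likewise with scaling by total reads, 0 members reached this unadjusted p. For 6 members both MHY libraries were below both DMSO libraries, and for none above. Over all genes this held for 16.9% below and 17.5% above. The 2 genes called, named after their values were seen, were *Mt1* (metallothionein, log2 difference 1.58 ± 0.32 SE, adjusted p = 0.00531, limma) and *Ftl1* (ferritin light chain, 0.56 ± 0.12, adjusted p = 0.00531, limma), neither of which is a member. *Mt1* stood at 119 and 38.5 CPM in DMSO replicates 21 and 23 and at 174 and 204 in MHY, so its DMSO libraries were far apart, and at 48 h its difference was -0.05. Without DMSO replicate 23, and likewise without MHY replicate 21, 0 genes were called.

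At 48 h the values that chose the members were larger. All 10 had a log2 difference below 0, from -0.35 (*Slc2a1*) to -2.70 (*Ankrd37*), with a median of -1.12 beside -0.01 for all genes. Both MHY libraries were below both DMSO libraries for 8 members, all but *Slc2a1* and *Pdk1*, where 20.1% of the genes measured lay below and 18.5% above, and nothing is read from this count because the same contrast chose the members. The summed level of the 10 was 2264 and 2583 CPM in DMSO replicates 24 and 25 and 969 and 1477 in MHY replicates 24 and 25. MHY replicate 24 was the lower of its group for 9 of 10 members, all but *P4ha1*, and without it the median difference was -0.68. In these bulk libraries fewer cells with a transcript and less transcript per cell cannot be told apart.

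**Figure D2:**
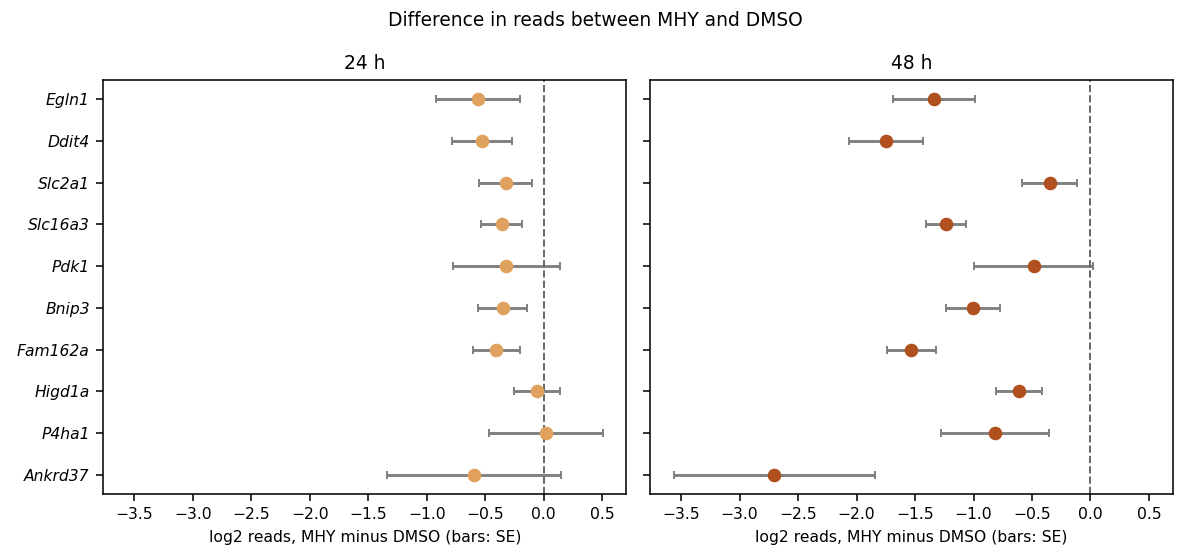
Log2 difference in reads between MHY and DMSO (x axis) of each member (y axis) at 24 h and 48 h, from the limma voom fit; bars are SE, with 2 libraries per group, and the dashed line is the median of all 5842 genes. Values at 24 h run from -0.60 to 0.02 and those at 48 h from -2.70 to -0.35, and the 48 h values chose the members.

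The first role is the control of the response itself. *Egln1* (chr8:124908587-124949324, minus strand) encodes PHD2, the main oxygen-sensing hydroxylase of HIF and a HIF target itself. It was read at 113 and 92.5 CPM in DMSO replicates 21 and 23 and at 59.6 and 78.1 in MHY replicates 21 and 23. The groups did not overlap, at 103 ± 14.5 against 68.9 ± 13.1 (SD, n = 2), a log2 difference of -0.56 ± 0.36 (SE) that was -0.34 without MHY replicate 21. At 48 h DMSO replicates 24 and 25 held 92.3 and 132 and MHY replicates 24 and 25 held 33.4 and 65.9, again apart, with a difference of -1.34 ± 0.35. Without MHY replicate 24 the 48 h difference was -0.76.

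*Ddit4* (chr10:59949669-59951834, minus strand) encodes REDD1, the inhibitor of mTORC1. Its DMSO replicates at 24 h held 237 and 223 CPM and its MHY replicates 170 and 144 (mean 230.3 ± 9.67 against 157 ± 18.1, SD, n = 2). This gap of -0.53 ± 0.25 on the log2 scale was wider than the spread within either group, and the adjusted p was 0.93 (limma). At 48 h both MHY libraries were at about the same low level, 51.6 and 56.5, while the DMSO libraries were far from each other at 112 and 266. The log2 difference was -1.75 ± 0.32 with all libraries and -1.04 without DMSO replicate 25. In reads, the 48 h comparison sets 23 and 79 in DMSO beside 17 and 12 in MHY.

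The second role is transport across the plasma membrane. *Slc16a3* (chr11:120948480-120960868, plus strand) encodes MCT4, an exporter of lactate, and gave the most reads of the members, 985. At 24 h it was measured at 632 and 609 CPM in DMSO and at 459 and 511 in MHY, without overlap and with a log2 difference of -0.36 ± 0.18 (adjusted p = 0.93, limma). At 48 h DMSO stood at 777 and 664 and MHY at 209.6 and 489, so the MHY replicates differed from each other by more than the DMSO replicates did. The difference was -1.24 ± 0.17 with all libraries and -0.54 without MHY replicate 24.

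*Slc2a1* (chr4:119108711-119137983, plus strand) encodes GLUT1, a glucose importer. It showed 288 and 254 CPM in DMSO and 197 and 234 in MHY at 24 h, apart from each other with a difference of -0.33 ± 0.23 (adjusted p = 0.94, limma) that was -0.19 without MHY replicate 21. At 48 h the groups overlapped, with 194 and 202 in DMSO and 128 and 207 in MHY. The 48 h difference was the smallest of the 10, -0.35 ± 0.23, and it was 0.06 without MHY replicate 24. Both 48 h DMSO libraries were below both DMSO libraries of 24 h, which were sequenced in other runs.

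Mitochondrial members form the third role. *Bnip3* (chr7:138890836-138909519, minus strand), a receptor for the removal of mitochondria by autophagy, was at 367 and 308 CPM in DMSO and 271 and 246 in MHY at 24 h. These groups were apart, by -0.35 ± 0.21 on the log2 scale (adjusted p = 0.93, limma). At 48 h the DMSO replicates were close together at 262 and 277 and the MHY replicates at 109 and 179, a difference of -1.005 ± 0.23 that was -0.59 without MHY replicate 24. *Fam162a* (chr16:36043761-36071594, minus strand) encodes a mitochondrial protein that HIF-1 induces. It had 429 and 408 in DMSO and 289 and 348 in MHY at 24 h (-0.41 ± 0.20, adjusted p = 0.93, limma), and 379 and 523 in DMSO and 146 and 169 in MHY at 48 h (-1.53 ± 0.21). Groups were apart at both times. The 24 h difference was -0.26 without MHY replicate 21, and the 48 h difference stayed between -1.74 and -1.28 when any 1 library of that time was left out.

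*Higd1a* (chr9:121848563-121858362, minus strand), a small protein of the inner mitochondrial membrane, was level at 24 h. It stood at 401 and 327 CPM in DMSO and 339 and 348 in MHY, so that the MHY values lay between the DMSO values, and the difference was -0.06 ± 0.20 (adjusted p = 0.99, limma). At 48 h it stood at 379 and 357 in DMSO and at 237 and 245 in MHY, with little spread within the groups and a difference of -0.61 ± 0.20. *Pdk1* (chr2:71873224-71903858, plus strand), the kinase that shuts the pyruvate dehydrogenase complex, was thinly covered. Its libraries held 5 to 20 reads each, or 33.9 and 77.1 CPM in DMSO and 36.7 and 54.1 in MHY at 24 h, and 24.3 and 47.2 in DMSO and 21.3 and 32.9 in MHY at 48 h. These groups overlapped at both times, and differences of -0.32 ± 0.46 and -0.49 ± 0.51 were about as large as their SE.

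Finally, *P4ha1* (chr10:59323296-59373304, plus strand) encodes the catalytic subunit of the collagen prolyl 4-hydroxylase and *Ankrd37* (chr8:45996902-46005707, minus strand) an ankyrin repeat protein. *P4ha1* was at 45.2 and 38.5 CPM in DMSO and 45.9 and 36.0 in MHY at 24 h, with overlap and a difference of 0.02 ± 0.49 (adjusted p = 1.00, limma). At 48 h it held 34.0 and 70.8 in DMSO and 33.4 and 23.5 in MHY, and the groups just missed each other. *Ankrd37* had only 9 and 4 reads in DMSO and 3 and 3 in MHY at 24 h, and 2 and 13 in DMSO and 0 and 2 in MHY at 48 h. Pooled over the 48 h libraries, 2 reads in MHY against 15 in DMSO gave a ratio of 0.124 (exact 95% interval 0.0137 to 0.532). The interval covers counting error only and is no test, since this contrast chose the member, and 13 of the 15 DMSO reads came from 1 library. A count of 0 in MHY replicate 24 allows up to 3 reads. The fitted 48 h difference of -2.70 depends on that library, being -1.21 without it and -4.19 without MHY replicate 25.

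The times within a treatment can be compared only as a description, since they were sequenced in different runs and the MHY libraries of 48 h are those whose low reads chose the members. Under DMSO, 5 members were higher and 5 lower at 48 h than at 24 h, with a median log2 difference of -0.15. All 10 were lower at 48 h under MHY, with a median of -0.66, where all genes had medians of -0.00 under DMSO and -0.01 under MHY. *Ddit4* was lower by -1.51 and *Fam162a* by -1.01 on the log2 scale under MHY, beside -0.41 and 0.09 under DMSO.

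All libraries of a time point shared each sequencing run, so the comparison could be made inside every run. At 48 h, 10 of 10 members were lower in MHY in both runs, with medians of -0.99 and -1.14. At 24 h, 9, 8 and 6 of 10 were lower in runs 1, 2 and 3, with medians of -0.42, -0.20 and -0.12. The runs of a time point draw on the same 4 biological replicates and are not replicates of the treatment. By the methods, 2 independent library preparations were made per time point, and which run read which preparation is not stated there. *Egln1*, *Ddit4*, *Slc16a3*, *Fam162a* and *Ankrd37* were lower in all 3 runs of 24 h, although *Ankrd37* had 10, 7 and 2 reads in these runs, was at -0.064 in run 2 and turned to 0.048 over all runs without DMSO replicate 21. By contrast, *Pdk1* and *P4ha1* were lower in 1 of 3, and *Bnip3* and *Slc2a1* were not lower in run 3 (0.17 and 0.06). The summed level of the members in run 3 was 2687 and 2347 CPM in DMSO and 2159 and 2336 in MHY, the narrowest gap of the 5 runs.

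**Figure D3:**
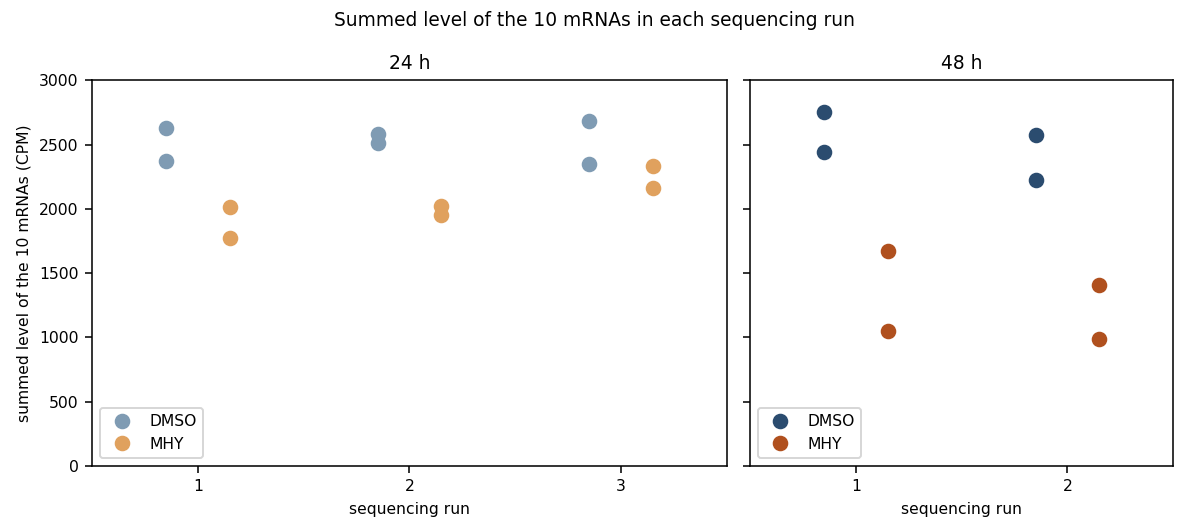
Summed level of the 10 members in CPM (y axis, from 0) in each sequencing run (x axis) at 24 h and 48 h; each point is 1 library in 1 run. DMSO points lie above MHY points in every run, most narrowly in run 3 of 24 h (2347 against 2336).

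Tails of the members did not stand out in length. The median tail over all libraries ran from 89.0 nt (*Slc16a3*) to 122 nt (*Bnip3*), and the median of the 10 was 107 nt beside 105 nt for all genes with at least 30 reads, whose middle range was 96.0 to 115 nt. *Slc16a3* was shorter than 89.5% of these genes and *Bnip3* longer than 85.2%. *Slc16a3* also had the larger share of tails under 30 nt among the well covered members, 5.08% of its 985 reads, compared with 1.30% of 385 for *Slc2a1* and 2.42% of 620 for *Fam162a*.

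At 24 h the tails of 9 members were tested, since *Ankrd37* had no read in MHY replicate 24 at 48 h and could not be fitted. Of the 9, 6 had a mean log2 tail difference below 0 (median -0.06, all genes 0.01), and no member was called in tail length, in the share under 30 nt or in the share of 30 to 90 nt (limma; 0%, 0% and 0% of 5637 genes were called). At an unadjusted p under 0.05, *P4ha1* was shorter and had more tails of 30 to 90 nt, *Fam162a* had more tails of 30 to 90 nt, and *Bnip3* had fewer tails under 30 nt. Of all genes, 3.92% had an unadjusted p under 0.05 in tail length, 5.25% in the share of 30 to 90 nt and 4.75% in the share under 30 nt. Without weights, 0 members reached it in tail length or in the share of 30 to 90 nt. The same held among genes with at least 10 reads in each library, but *P4ha1* and *Pdk1* were not in that fit. *Bnip3* reached it in the share under 30 nt in both of these alternatives. It did not with barcode confidence of at least 0.9 (*Slc2a1* did), with a block for library numbers (*Higd1a* did) or with a bound of 20 nt (*Egln1* and *Ddit4* did). In mean log2 tail, both MHY libraries were below both DMSO libraries for 3 of 9 (*Egln1*, *Fam162a* and *P4ha1*), beside 16.0% of all genes. By the median tail they were below for 2 of 9 (*Fam162a* and *P4ha1*, beside 17.0% of all genes) and above for 1 (*Pdk1*). Both counts were made after the data were seen, and the mean log2 tail is the measure of the fit. *Fam162a* had medians of 104 and 103 nt in DMSO replicates 21 and 23 and of 90.6 and 81.4 nt in MHY replicates 21 and 23. Its groups were apart, with a mean log2 difference of -0.17 ± 0.10 (adjusted p = 1.00, limma). For *P4ha1* the medians were 126 and 110 nt in DMSO and 53.9 and 78.8 nt in MHY, on 6 to 10 reads per library (-0.57 ± 0.28, adjusted p = 1.00, limma). *Pdk1* went the other way, with 74.9 and 81.2 nt in DMSO and 84.2 and 130.6 nt in MHY.

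At 48 h, again as a description, the mean log2 tail was lower in both MHY libraries for 4 of 9 members, the same 3 and *Higd1a* (23.0% of all genes). By the median tail the count was 6 of 9, with *Ddit4* and *Slc16a3* besides these 4 (20% of all genes, 1127 of 5637), so the count depends on the measure. *Fam162a* had 104 and 106 nt in DMSO and 88.3 and 99.5 nt in MHY, so its MHY tails were below its DMSO tails at both times. *Egln1* had 115.5 and 134 nt in DMSO and 78.4 and 98.6 nt in MHY, *Ddit4* 117 and 125 nt against 108 and 113 nt, and *Higd1a* 116 and 110.0 nt against 104 and 91.6 nt. The medians of *Bnip3*, *Slc2a1* and *Pdk1* overlapped. The fitted difference was below 0 for 8 of 9 members, with a median of -0.18 beside -0.06 for all genes. Over all reads the median tail was 92.4 and 98.2 nt in MHY replicates 24 and 25 and 96.8 and 99.3 nt in DMSO, so that only MHY replicate 24 lay below both DMSO libraries. Without MHY replicate 24 the median over members was -0.061.

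With the reads of the 10 members pooled, tails of 30 to 90 nt made up 36.3% (Wilson 95% interval 32.0 to 40.8) and 36.3% (32.6 to 40.2) of the reads in DMSO at 24 h, and 42.9% (38.2 to 47.8) and 40.5% (35.4 to 45.8) in MHY. At 48 h these shares were 38.0% (33.7 to 42.5) and 35.2% (31.9 to 38.7) in DMSO and 42.0% (36.7 to 47.5) and 41.1% (35.8 to 46.6) in MHY. Both MHY libraries were above both DMSO libraries at both times, but every MHY interval overlapped every DMSO interval of its time. All reads of the libraries showed 37.9% to 39.5% in DMSO and 39.1% to 40.1% in MHY at 24 h, and 40.5% to 42.1% and 40.6% to 43.8% at 48 h. Tails under 30 nt were few among the members, 9 to 22 reads per library. Their share was 2.39% and 3.601% in DMSO and 2.44% and 2.68% in MHY at 24 h, and 3.004% and 2.74% in DMSO and 5.64% and 3.82% in MHY at 48 h. Over all reads it was 2.87% and 2.57% in DMSO and 4.46% and 3.38% in MHY at 48 h, so that at this time MHY was the higher among the members and among all reads alike.

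**Figure D4:**
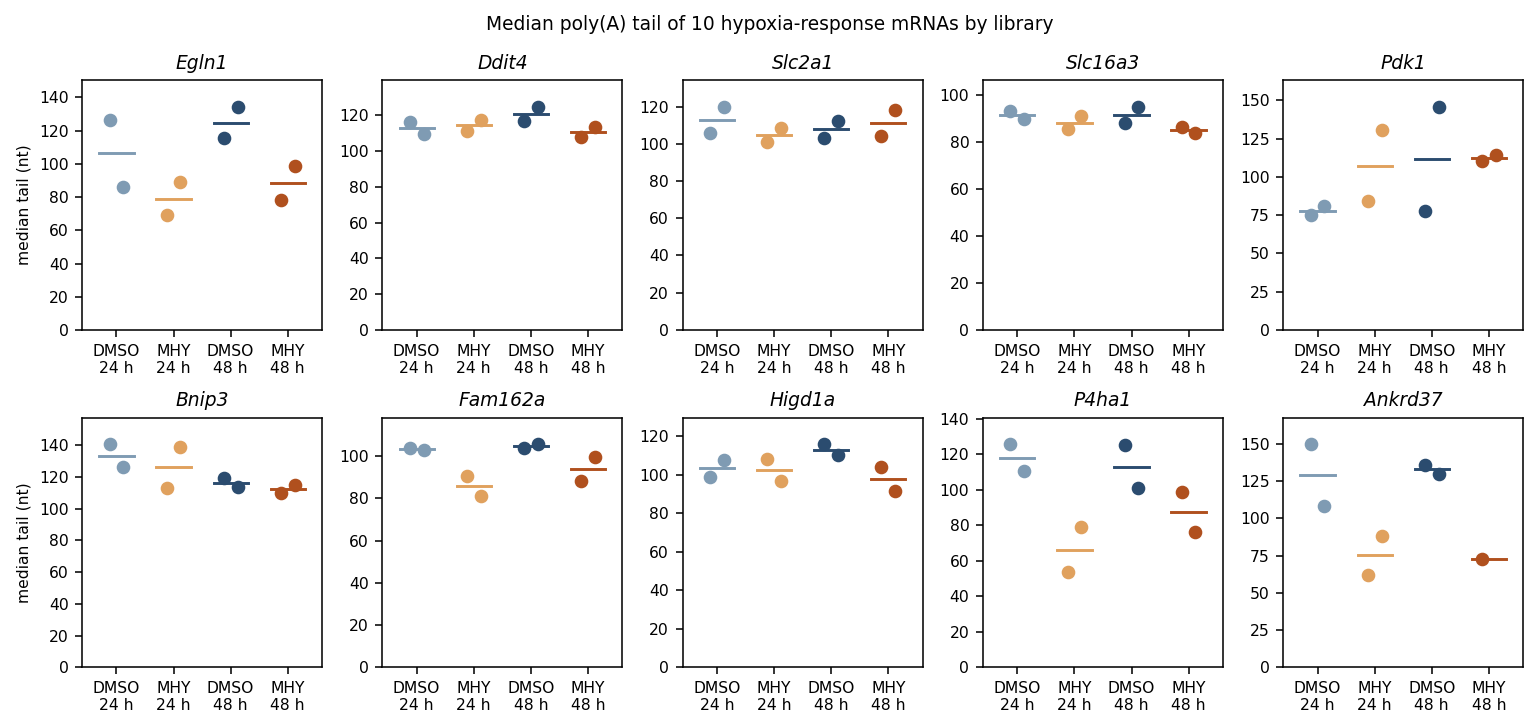
Median poly(A) tail in nt (y axis, from 0) of each member in each library of the 4 groups (x axis); points are libraries and bars are means of the library medians. *Fam162a* tails are shorter in MHY at both times (104 and 103 nt against 90.6 and 81.4 nt at 24 h); *Ankrd37* and *P4ha1* medians rest on 13 reads or fewer in most libraries, and *Ankrd37* has no read in MHY replicate 24.

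The isoforms read were those of the annotation (GENCODE vM21, coordinates identical to the deposited ones). *Egln1*, *Ddit4* and *Bnip3* were each read as 1 transcript. *Slc16a3* reads were split over 3 isoforms (44.6%, 32.7% and 22.7%), and mapping quality reached 10 in only 18.5% of its reads. Its isoform shares are uncertain at this mapping quality, while the sum over the gene is not affected by the split. The leading *Slc16a3* isoform held 35.7% and 46.8% of the reads in DMSO and 45.0% and 43.5% in MHY at 24 h, and 53.8% and 45.7% in DMSO and 42.0% and 36.5% in MHY at 48 h. *Slc2a1* and *Pdk1* reads reached a mapping quality of 10 in 52.2% and 51.3% of cases, with their leading isoforms at 76.4% and 73.7%. Reads began within 100 nt of the annotated start in 93.9% of *Fam162a* and 72.3% of *Bnip3* reads. For *Higd1a* this share was 0.997%, and its reads began at a median of 809 nt into a transcript annotated at 2232 nt.

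Read completeness was also followed. Over all genes, 47.8% to 50.3% of reads began near the start at 24 h and 46.9% to 49.3% at 48 h. Over the members the share was 39.1% and 36.0% in DMSO and 34.1% and 36.0% in MHY at 24 h, and 43.1% and 41.4% in DMSO and 36.1% and 32.8% in MHY at 48 h, where the groups were apart. Within single members, with the libraries of a group pooled, the share at 48 h was lower in MHY for 5 of 10 and higher for 5. It was 54.9% in DMSO and 44.8% in MHY for *Ddit4*, 27.2% and 26.6% for *Slc16a3*, 90.1% and 95.2% for *Fam162a* and 72.1% and 73.0% for *Bnip3*. The pooled share also depends on the mix of members. At 48 h *Fam162a* gave 233 reads in DMSO and 84 in MHY. *Higd1a*, with 1.09% and 1.54% of reads near the start, gave 184 and 130. The part of this mix in the pooled share, and of read length in the counts, was not tested.

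Among the 12 measured components of the HIF pathway itself (hydroxylases other than *Egln1*, HIF subunits and the VHL ligase), 0 were called at 24 h, and at 48 h both MHY libraries were below both DMSO libraries for 4 and above for 1. The shares of all genes to read these and the following counts against are 16.9% below and 17.5% above at 24 h, and 20.1% below and 18.5% above at 48 h. The ligase subunits *Elob*, *Rbx1* and *Eloc* gave the most reads, with log2 differences at 48 h of -0.17 ± 0.15, 0.22 ± 0.18 and -0.24 ± 0.21. Of 30 measured hypoxia targets outside glycolysis that are not members, 0 were called at 24 h (median -0.19), with 6 below and 3 above. At 48 h 14 were below and 2 above (median -0.40). *Mif*, *Slc2a3* and *P4hb*, the best covered, differed by -0.42 ± 0.10, -0.38 ± 0.18 and -0.60 ± 0.19 at 48 h. Their 24 h differences were 0.07 ± 0.11, 0.11 ± 0.20 and -0.34 ± 0.21, so only *P4hb* had both MHY libraries below DMSO at both times. The glycolytic hypoxia targets gave 0 calls at 24 h, where their median was 0.05, against -0.36 for the members, with 5 of 14 below and 0 above. At 48 h 12 of 14 were below, with a median of -0.90 (*Gapdh* -0.49 ± 0.07, *Pkm* -0.78 ± 0.11, *Ldha* -1.01 ± 0.12). The difference between the lists was not tested.

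Components of mTORC1 signalling and targets of ATF4 are further programmes tied to mTOR. Of 22 mTORC1 components 0 were called at 24 h, with 2 below and 9 above (median 0.22; 16.9% and 17.5% of all genes), and *Eif4ebp1*, the best covered, was higher in both MHY libraries at both times (0.42 ± 0.17 at 24 h, adjusted p = 0.92, limma). At 48 h 1 was below and 6 above, where 20.1% and 18.5% of all genes were, and the median was 0.00 with 11 of 22 differences below 0. For 19 ATF4 targets no call was made at 24 h, with 0 below and 4 above (median 0.08), and at 48 h 0 were below and 8 above (median 0.29), among them *Atf4* itself at 0.48 ± 0.18.

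Over the 8 libraries the members varied together, and the 48 h libraries that chose them are among the 8. Each member was correlated with the mean centred log2 level of the other 9, with r from 0.59 (*Pdk1*) and 0.61 (*P4ha1*) to 0.93 (*Fam162a*) and 0.95 (*Bnip3*). The 5 other genes whose levels were most like the mean of the members were *Pgam1* (r = 0.99), *Rpl27a* (0.99), *Rpl19* (0.98), *Pgk1* (0.98) and *Grhpr* (0.98). The 8 points are the same libraries for all genes and fall in 4 groups, so these values are descriptions. *Pgk1*, a glycolytic enzyme, stood at 2394 and 2215 CPM in DMSO and 1982 and 2049 in MHY at 24 h, and at 2109 and 2597 in DMSO and 850.5 and 1233 in MHY at 48 h. *Rpl27a* and *Rpl19* encode ribosomal proteins and moved much less, by -0.33 and -0.19 at 48 h.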

How the data were processed

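As the methods state, the authors used Guppy for base calling, minimap2 (2.20 in the submitters' processing notes) for alignment to GENCODE vM17 mouse transcripts (mm10), Nanopolish for tail lengths and Deeplexicon for demultiplexing. The deposited table gives each alignment with its tail length in nt, a barcode confidence (a fraction) and a mapping quality (a score), none of them normalized, and it holds no counts. Here lines tagged PASS were counted once per read and transcript (2005242 lines), 66955 mitochondrial and 12169 pseudogene lines were set aside, and 1926118 lines were summed per gene. Genes with at least 30 reads were fitted with limma 3.58.1 voom (R 4.3.3), with median-of-ratios size factors and all 8 libraries in 1 fit of group means. Tails entered limma as mean log2(tail + 1), or as log2 odds of a share with 0.5 reads added, weighted by reads, for genes read in every library. Tails were compared between groups by mean log2 tail, with the median tail beside it. Calls needed a Benjamini-Hochberg adjusted p under 0.05 over all genes. The scripts were tested on simulated data. A gene of the neuronal marker list is not reported here. The members, gene lists and tests were chosen with earlier results of these data known. Members were all named, list genes by most reads, and similar genes by Pearson's r of log2 level over 8 libraries. Alternatives covered scaling, filters, mapping quality, barcode confidence, runs, replicate block and left-out libraries. Replicates are biological per the study's methods, and with 2 per group precision is low. Wilson intervals cover counting error only.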

Additional observations from a re-analysis of the deposited data

How the results depend on the processing

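With 2 libraries per group the precision is limited, and thinly read members (*Pdk1*, *P4ha1*, *Ankrd37*) have SEs of 0.46 to 0.86 on the log2 scale. Scaling by total reads shifted the median of all genes by 0.13 at 48 h, and fitting without a filter shifted it by 0.10 at 24 h, and neither changed the side of 0 of the median over members. At 24 h no alternative called a member in reads or tails. The counts of genes called changed in some of them: in reads, 1 with mapping quality of at least 10 and 1 with the replicate block, 2 to 3 in the other alternatives with all libraries (2 as reported), and 0 to 1 without 1 library. In the share of 30 to 90 nt, 1 gene was called with barcode confidence of at least 0.9 and 4 with the replicate block, and 0 to 2 without 1 library. In mean log2 tail the replicate block called 2 genes. The labels do not say whether libraries of the same number are paired (correlation of their deviations 0.02 at 24 h and 0.14 at 48 h). With the replicate block the median over members was -0.37 for reads at 24 h. The median tail difference at 24 h ranged from -0.10 to 0.011 without 1 library, above 0 without MHY replicate 21. The median read difference at 48 h ranged from -1.46 to -0.68 without 1 library, the latter without MHY replicate 24. It was -0.99 with scaling by total reads and -1.33 with barcode confidence of at least 0.9. With that confidence *Slc2a1* was at -0.64, *Pdk1* at -1.02 and *P4ha1* at -1.37. The differences of *Fam162a* (-1.51) and *Ankrd37* (-2.64) were slightly smaller than reported.

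These single members changed sign. *P4ha1* at 24 h was -0.42 with barcode confidence of at least 0.9, -0.023 with limma trend, -0.021 with the replicate block, -0.61 in run 1 alone and -0.15 to 0.15 without 1 library. *Higd1a* at 24 h was 0.033 with mapping quality of at least 10, 0.0083 in run 2 alone and -0.22 to 0.075 without 1 library. *Pdk1* at 24 h was 0.44 in run 1 alone, 0.49 in run 3 alone and -0.78 to 0.33 without 1 library. In run 3 alone *Slc2a1* was 0.058 and *Bnip3* 0.17 at 24 h, and *Ankrd37* was -1.58 to 0.048 without 1 library. At 48 h *Pdk1* ranged from -0.85 to 0.029 and *Slc2a1* from -0.64 to 0.058 without 1 library. With all libraries, the counts of members below DMSO in both MHY libraries were 6 to 7 at 24 h and 6 to 10 at 48 h under the alternatives. Without 1 library they were 7 to 8 at 24 h and 8 to 10 at 48 h, but with fewer libraries this condition is easier to meet. These alternatives were chosen after the data were seen. In all, 1 of 192 summary values and 17 of 308 values of single members under the alternatives changed sign. Without 1 library *Ankrd37* at 48 h ranged from -4.19 to -1.21. The members lower in both MHY libraries in tail length numbered 3 at 24 h and 4 at 48 h by mean log2 tail, and 2 and 6 by median tail.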

Other observations

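Reads that the tail caller tagged ADAPTER were not used above and give the members' share in other molecules of the same libraries. Members took 1460 and 2098 CPM of these reads in DMSO replicates 21 and 23 and 1430 and 1364 in MHY replicates 21 and 23. At 48 h they took 1839 and 2277 in DMSO replicates 24 and 25 and 894 and 1296 in MHY replicates 24 and 25, on 39 to 109 member reads per library. The libraries and the 48 h contrast are those that chose the members, so these values are a description.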
